A study of Homo sapiens with 14 samples.

Results

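The MHC class I presentation genes described here were HLA-B, HLA-C, HLA-E, HLA-F, B2M, TAPBP, TAP2 and ERAP1, measured on 14 expression arrays. All probe sets annotated to these 8 genes were taken, which gave 25 of the 22215 probe sets that were not array controls. HLA-B had 3 of them, HLA-C 4, HLA-E 3, HLA-F 3, B2M 2, TAPBP 2, TAP2 3 and ERAP1 5, and 0 of the 25 named several genes. The genes were grouped by function with results on these arrays already known, and which comparison was looked at is not recorded. The p-values below, each adjusted over all 22215 probe sets with limma, therefore describe these arrays and give the choice of genes no independent support.

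The cells were U2OS, a human osteosarcoma line, and every group stably carried ER-E2F1, the transcription factor E2F1 fused to an estrogen receptor domain that 4-hydroxytamoxifen (OHT) activates. They were infected with lentivirus encoding the hairpin shFOXO33 or shFOXO707, each of which targets both FOXO1 and FOXO3, or a scrambled hairpin (sh-scr). Medium without serum replaced the growth medium 24 h after infection, and 24 h later the cells were kept for 6 h with 20 nM OHT or without it. The groups were shFOXO33 with OHT (2 arrays), shFOXO707 with OHT (2), sh-scr with OHT (4), shFOXO33 without OHT (1), shFOXO707 without OHT (1) and sh-scr without OHT (4). Since every group carried the fusion, what OHT does by itself and what the activated fusion does cannot be told apart. Nothing in the labels says that the arrays of a group came from separate cultures, so the p-values measure the spread between these arrays, which may be technical. In bulk RNA, fewer cells with a transcript and less transcript per cell cannot be told apart.

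Class I molecules show peptides from inside the cell to CD8 T cells and to natural killer cells. A polymorphic heavy chain such as HLA-B or HLA-C, or a less variable one such as HLA-E or HLA-F, pairs with the light chain beta-2-microglobulin (B2M). Peptides enter the endoplasmic reticulum through the TAP1-TAP2 transporter, are trimmed by the aminopeptidase ERAP1, and are loaded onto the heavy chain with the help of tapasin, the product of TAPBP. Interferons raise many of these genes through an interferon-stimulated response element (ISRE).

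The promoters of 5 of these genes are shown because the genes lie in 1 pathway but gave different values, and because the classical heavy chain genes HLA-B and HLA-C resemble each other closely. The sequences are RefSeq windows on GRCh38.p14, from 250 bases before to 50 after the annotated start, on the strand of the gene. Capitals mark matches, on either strand, to the ISRE-like letters GAAA, any pair of bases, then GAAA. HLA-B lies at chr6:31357130-31357429 (minus strand), HLA-C at chr6:31272043-31272342 (minus), TAPBP at chr6:33314029-33314328 (minus), TAP2 at chr6:32838690-32838989 (minus) and B2M at chr15:44711267-44711566 (plus).
HLA-B: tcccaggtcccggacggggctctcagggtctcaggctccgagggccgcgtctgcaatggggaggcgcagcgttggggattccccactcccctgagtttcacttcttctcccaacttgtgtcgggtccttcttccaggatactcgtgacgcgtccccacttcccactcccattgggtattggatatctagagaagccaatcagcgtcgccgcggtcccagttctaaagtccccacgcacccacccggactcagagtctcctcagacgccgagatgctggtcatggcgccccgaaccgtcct
HLA-C: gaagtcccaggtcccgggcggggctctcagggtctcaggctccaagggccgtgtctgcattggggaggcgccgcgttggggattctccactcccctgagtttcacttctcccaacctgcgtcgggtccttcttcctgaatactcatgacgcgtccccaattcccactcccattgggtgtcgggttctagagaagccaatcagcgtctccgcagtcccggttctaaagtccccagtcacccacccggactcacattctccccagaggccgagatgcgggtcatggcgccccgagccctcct
B2M: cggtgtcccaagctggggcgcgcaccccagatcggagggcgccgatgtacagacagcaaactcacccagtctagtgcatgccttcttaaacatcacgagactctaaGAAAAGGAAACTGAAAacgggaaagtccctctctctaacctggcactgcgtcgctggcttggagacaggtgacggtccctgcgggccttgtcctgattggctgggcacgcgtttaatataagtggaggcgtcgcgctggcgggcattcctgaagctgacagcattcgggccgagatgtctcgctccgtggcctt
TAPBP: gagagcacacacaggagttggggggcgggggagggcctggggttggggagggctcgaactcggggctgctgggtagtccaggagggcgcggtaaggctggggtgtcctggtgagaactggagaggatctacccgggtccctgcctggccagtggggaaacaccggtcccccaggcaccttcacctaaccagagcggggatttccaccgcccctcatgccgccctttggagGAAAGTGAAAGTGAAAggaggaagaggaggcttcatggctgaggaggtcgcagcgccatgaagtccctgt
TAP2: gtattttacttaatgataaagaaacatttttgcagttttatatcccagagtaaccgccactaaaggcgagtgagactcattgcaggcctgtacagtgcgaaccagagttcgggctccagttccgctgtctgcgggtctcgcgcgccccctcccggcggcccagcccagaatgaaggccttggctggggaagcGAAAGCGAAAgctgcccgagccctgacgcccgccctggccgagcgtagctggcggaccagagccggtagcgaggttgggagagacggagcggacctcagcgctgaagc

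Of the 8 genes, 7 matched at least 1 promoter entry, and HLA-E had none in the table. The HLA-B and HLA-C windows were identical at 269 of 304 aligned columns (88.5%), and the HLA-F window matched them at 79.2% and 78.5%. The other pairs of these windows, leaving out ERAP1, matched at 43.2% to 48.9%. The ISRE-like letters stood once in TAP2, starting at position -58 relative to the start, and as an overlapping pair in TAPBP, starting at -20 and -14. B2M also held an overlapping pair, at -144 and -138, and single matches on the other strand stood in HLA-F at -156 and in 1 of the 2 ERAP1 entries at +3. Among 35116 promoter windows of the same length, 3.57% held these letters. The FOXO letters TGTTTAC (3.42% of all windows) and the E2F letters TTTCCCGC, TTTGGCGC, TTTCGCGC or TTTGCCGC (3.31%) were in none of the members' 8 windows. A match of letters is a description and not a binding site, and the absence of letters from a window says nothing about the factor.

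The values are linear MAS5 signals scaled to a common trimmed mean, and tests were made on log2(signal + 16). Levels are compared only within a probe set. Array medians were 114 to 119 with OHT and 137 to 143 without it, and the median of all probe sets moved by -0.14 on the log2 scale with OHT in sh-scr cells. The mean array median itself differed by -0.23 on that scale, so OHT effects are also given after median centring, which removes this difference, or after quantile normalization. FOXO1 averaged 199 in hairpin cells and 501 in sh-scr cells with OHT (log2 difference -1.29, adjusted p = 8.85e-05), and FOXO3 averaged 558 and 1793 (-1.81, adjusted p = 0.00136). Without OHT, FOXO1 averaged 44.2 in hairpin cells and 103 in sh-scr cells (-0.99, adjusted p = 0.00838). FOXO3 averaged 206 and 449 there, which was not called pooled (-1.13, adjusted p = 0.122) but was for shFOXO33 (-1.59, adjusted p = 1.58e-07) and shFOXO707 (-0.68, adjusted p = 0.000518) singly. With OHT both were higher in sh-scr cells, FOXO1 by 4.86-fold (adjusted p = 2.29e-08) and FOXO3 by 3.99-fold (adjusted p = 5.92e-05). With OHT, FOXO3 averaged 307 with shFOXO33, 810 with shFOXO707 and 1793 with sh-scr. For ACTB control probes, signal near the 3' end over that near the 5' end was 2.04 and 1.95 in the shFOXO707 arrays with OHT and 1.49 to 1.74 in the others. The part of this ratio in the results was not tested. The class II and blood cell markers were dim, with 3 of 13 above a signal of 79.1, the 40th percentile. Their summed signal was 871 to 1063 over all arrays. With OHT in sh-scr cells, 1 of these 13 markers was called higher and 1 lower, or 1 and 0 after median centring. Among 10 mesenchymal and osteoblast-lineage markers 8 lay above the signal of 79.1, and vimentin (VIM) averaged 13442. The summed signal of these 10 with OHT was 32974 to 34162 for shFOXO33, 36951 to 39628 for shFOXO707 and 38501 to 41653 for sh-scr. Without OHT it was 36576, 41129 and 44614 to 45516 in the same order.

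Tapasin was the 1 member gene called higher in the knockdown cells, with OHT and without it. TAPBP probe set 208829_at gave signals of 1077 and 986 in shFOXO33 cells and 843 and 936 in shFOXO707 cells with OHT, against 246, 325, 236 and 387 in sh-scr cells with OHT. Without OHT it gave 1021 in the shFOXO33 array and 957 in the shFOXO707 array, against 216, 260, 268 and 253 in sh-scr arrays. All 6 hairpin arrays lay above all 8 scrambled arrays. With OHT the mean was 961 ± 97.6 in hairpin cells and 299 ± 70.9 in sh-scr cells (SD, n = 4 each), a 3.22-fold ratio of means. On the log2 scale the difference was 1.66 (SE 0.14, 95% interval 1.36 to 1.95, adjusted p = 4.9e-06). Without OHT the mean was 989 ± 45.1 in hairpin cells (SD, n = 2) and 249 ± 23 in sh-scr cells (SD, n = 4), a 3.97-fold ratio and a log2 difference of 1.92 (SE 0.17, adjusted p = 2.63e-05). The 27 alternatives with OHT gave 1.51 to 1.78, all called, and the 25 alternatives without OHT gave 1.75 to 2.04, all called.

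This TAPBP probe set was higher with each hairpin. Against sh-scr with OHT the log2 difference was 1.76 (SE 0.15, adjusted p = 8.37e-07) for shFOXO33 and 1.55 (SE 0.15, adjusted p = 4.61e-06) for shFOXO707. Without OHT, where each hairpin had 1 array and the spread was taken from the other groups, it was 1.97 (SE 0.20, adjusted p = 8.59e-06) for shFOXO33 and 1.88 (SE 0.20, adjusted p = 1.63e-05) for shFOXO707. The difference of shFOXO707 minus shFOXO33 with OHT was -0.21, with a 95% interval of -0.59 to 0.17 (adjusted p = 0.482). In order, the group means were 1031 for shFOXO33 with OHT, 1021 for shFOXO33 without it, 957 for shFOXO707 without it, 890 for shFOXO707 with it, 299 for sh-scr with it and 249 for sh-scr without it. The shFOXO33 array without OHT lay between those with it, the shFOXO707 array without OHT lay above both with it, and the sh-scr groups overlapped. OHT gave -0.05 (SE 0.17, adjusted p = 0.874) in hairpin cells. In sh-scr cells it gave 0.22 (SE 0.14, adjusted p = 0.212), which became 0.45 (adjusted p = 0.0166) after median centring and 0.42 (adjusted p = 0.0217) after quantile normalization. The interaction, the OHT response of hairpin cells minus that of sh-scr cells, was -0.27 (95% interval -0.73 to 0.19, adjusted p = 0.868).

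The second TAPBP probe set was dim and was not called with either hairpin. Probe set 210294_at gave signals of 105 and 83.6 in shFOXO33 cells and 49.1 and 10.9 in shFOXO707 cells with OHT, against 32.6, 75.9, 45.6 and 51.2 in sh-scr cells with OHT. Without OHT it gave 112 in the shFOXO33 array and 29.5 in the shFOXO707 array, against 10.7, 81.8, 51.6 and 76.7 in sh-scr arrays. The 3 shFOXO33 arrays were the highest of the 14, and the shFOXO707 arrays overlapped the scrambled ones. With OHT the log2 difference from sh-scr was 0.75 (95% interval -0.26 to 1.75, adjusted p = 0.296) for shFOXO33 and -0.65 (95% interval -1.65 to 0.36, adjusted p = 0.408) for shFOXO707. Without OHT it was 1.01 (adjusted p = 0.341) and -0.48 (adjusted p = 0.721) for the same hairpins. The pooled difference with OHT, 0.05 (SE 0.50, adjusted p = 0.97), averages these values of opposite sign. The difference of shFOXO707 minus shFOXO33 was -1.39 (95% interval -2.55 to -0.23, adjusted p = 0.0847). The files name no exons or isoforms for either probe set.

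**Figure D1:**
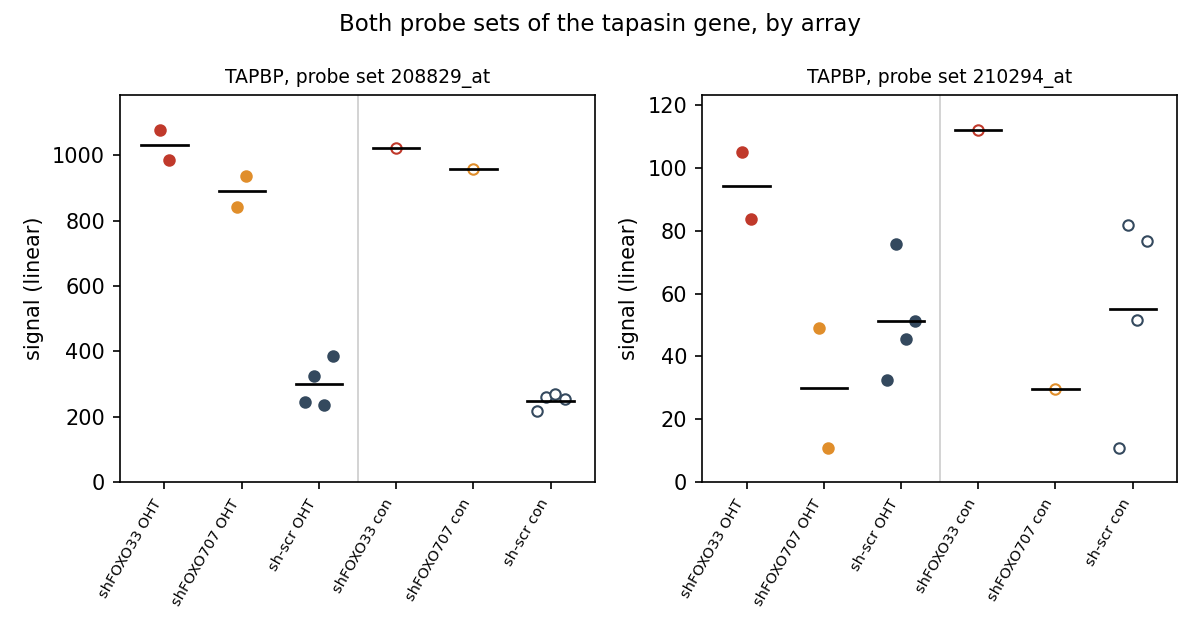
Linear signal (vertical axes, from 0) of both TAPBP probe sets in each array, grouped by virus and treatment along the horizontal axis, with filled points for OHT, open points for no OHT and bars at group means. On the left, the 6 hairpin arrays sit between 843 and 1077 and the 8 scrambled arrays between 216 and 387, and on the right the 3 shFOXO33 arrays (83.6 to 112) lie above the scrambled arrays (10.7 to 81.8), which the shFOXO707 arrays overlap.

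By gene order in RefSeq, the 3 nearest measured genes on each side of TAPBP were WDR46, B3GALT4 and RPS18 on one and ZBTB22, DAXX and KIFC1 on the other. Of these 6, 0 were called in the knockdown comparison with OHT, with log2 differences of -0.33 to 0.07, or without OHT (-0.82 to 0.28). With single hairpins, DAXX was lower with shFOXO33 without OHT (-1.07, adjusted p = 0.0171, 1 array), and no other neighbour was called with either hairpin, with or without OHT. Over the 14 arrays, the genes whose log2 values followed TAPBP 208829_at most closely were CYB5R3 (Pearson r = 0.965), TNC (0.961) and SUN2 (0.952). These are the highest values among all genes, and the arrays fall into separate groups, so they describe the pattern only.

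In the knockdown comparison with OHT, 3 of the 25 member probe sets were called, against 10.1% of all probe sets, with 1 higher (6.1% of all) and 2 lower (3.95% of all). The higher one was TAPBP and both lower ones belonged to HLA-B. HLA-B encodes a classical heavy chain that presents peptides to CD8 T cells. Probe set 211911_x_at gave 2054 and 1875 in shFOXO33 cells and 1847 and 1889 in shFOXO707 cells with OHT, against 2233, 2152, 2243 and 2321 in sh-scr cells with OHT. All 4 hairpin arrays lay below all 4 scrambled arrays. The log2 difference was -0.22 (SE 0.05, adjusted p = 0.0145), and that of probe set 208729_x_at was -0.25 (SE 0.06, adjusted p = 0.0139). The brightest HLA-B probe set, 209140_x_at, gave 4805 and 4432 in shFOXO33 cells and 4367 and 4221 in shFOXO707 cells with OHT, against 4571, 4816, 4886 and 4779 in sh-scr cells, and the groups overlapped (-0.10, SE 0.05, adjusted p = 0.3). Neither HLA-B call held without a trend in the variance prior (adjusted p = 0.067 for 211911_x_at and 0.0525 for 208729_x_at). Without replicate 4 of sh-scr with OHT, 0 member probe sets were called lower.

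Of the 13 heavy chain probe sets, 11 carry the suffix _x_at, which the array's maker gives to probe sets that can also bind other transcripts, so values of different HLA genes are not independent of each other. Over the 14 arrays, which fall into groups, the brightest probe sets of the 4 HLA genes correlated at Pearson r of 0.60 to 0.84 with each other, and at -0.49 to -0.64 with TAPBP. Over all 25 members the median log2 difference with OHT was -0.08 for knockdown, against 0.04 over all probe sets. Groups did not overlap for 6 of the 25, against 16.7% of all probe sets. Without OHT, only TAPBP 208829_at was called among the 25, against 3.16% of all probe sets (1.76% higher, 1.4% lower), and 7 of the 25 had groups that did not overlap, against 23.4%.

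**Figure D2:**
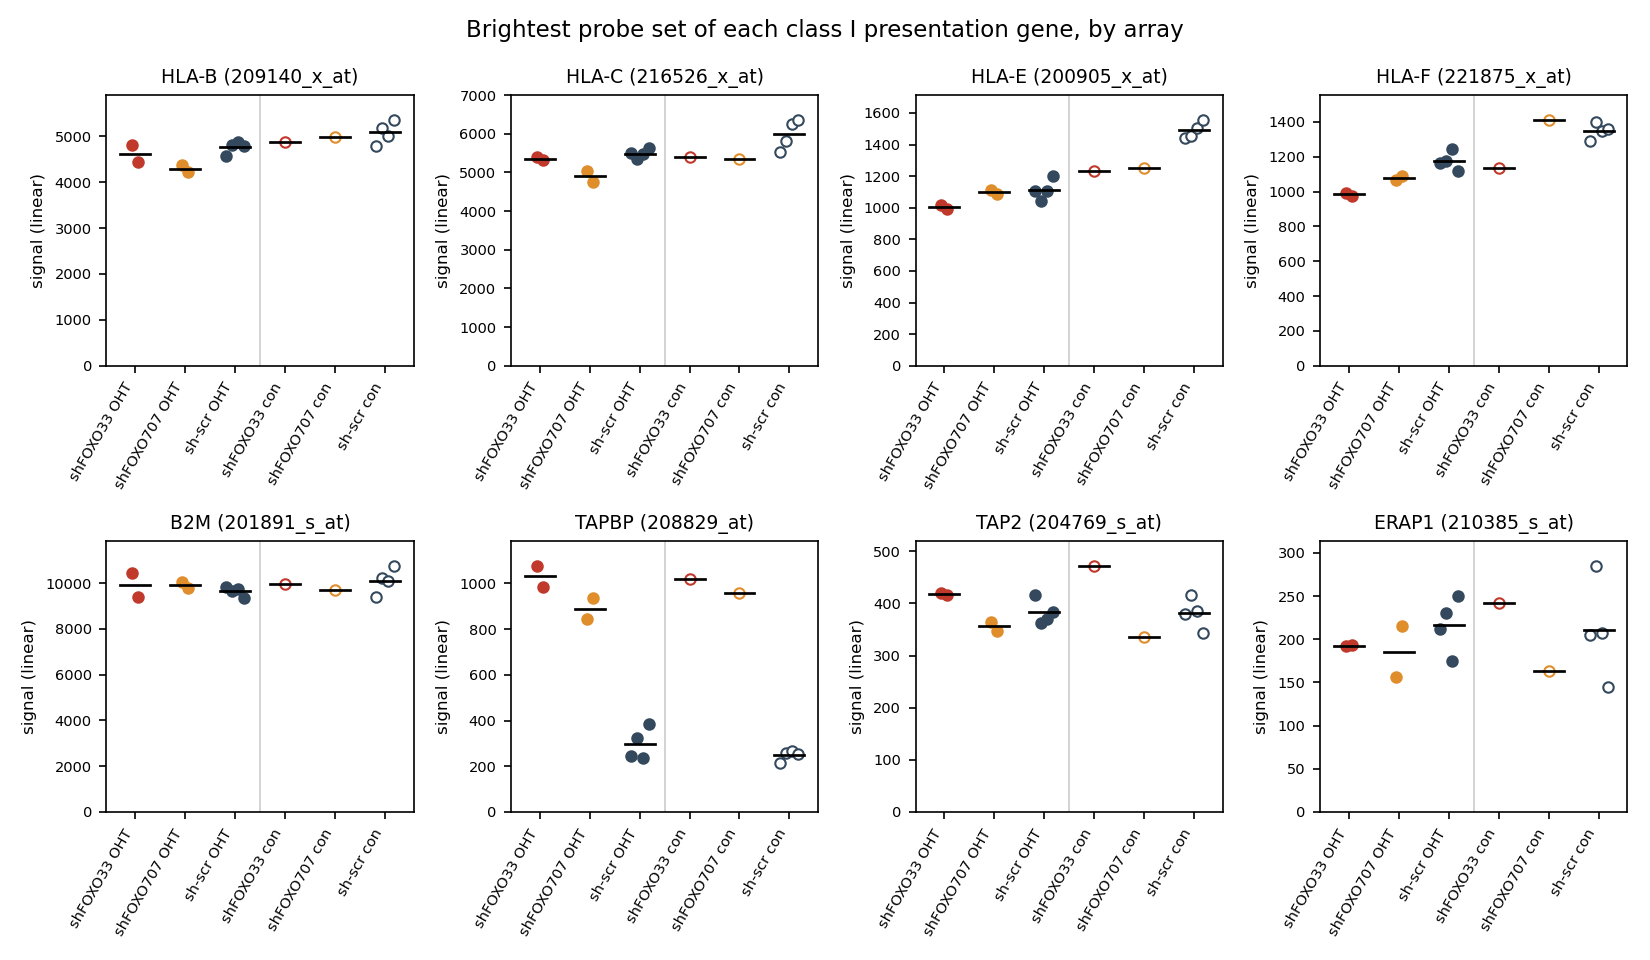
Linear signal (vertical axes, from 0, on a scale of its own for each gene) of the brightest probe set of each of the 8 genes in each array, grouped by virus and treatment, with filled points for OHT, open points for no OHT and bars at group means. The hairpin arrays stand apart from the scrambled arrays for TAPBP, and the HLA-E arrays with OHT (994 to 1204) lie below those without it (1233 to 1558).

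The hairpins were also set against sh-scr one at a time in a fit of 6 groups. With OHT, shFOXO33 had 6 called members of 25, 1 higher and 5 lower, against 25.3% of all probe sets (13.7% higher, 11.6% lower). For shFOXO707 there were also 6, 1 higher and 5 lower, against 20.5% (11.2% higher, 9.28% lower). Groups did not overlap for 13 members with shFOXO33, against 42.6% of all probe sets, and for 10 with shFOXO707, against 38.6%. HLA-B 211911_x_at was lower with both hairpins, by -0.19 with shFOXO33 (adjusted p = 0.0131) and -0.26 with shFOXO707 (adjusted p = 0.00187). HLA-B 208729_x_at was lower by -0.22 (adjusted p = 0.0123) with shFOXO33 and -0.28 (adjusted p = 0.00319) with shFOXO707. With no trend in the variance prior, both HLA-B calls with shFOXO33 were lost (adjusted p = 0.0722 for 211911_x_at and 0.0591 for 208729_x_at). The HLA-B call of 211911_x_at was lost without shFOXO33 replicate 2 (adjusted p = 0.215), and those of 208729_x_at without shFOXO33 replicate 1 (0.113) or shFOXO707 replicate 2 (0.0741). The other 3 lower calls with shFOXO33 were all 3 probe sets of HLA-F, a nonclassical heavy chain gene, and the other 3 with shFOXO707 were probe sets of the classical heavy chain gene HLA-C.

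HLA-F 221875_x_at gave 992 and 977 in shFOXO33 cells and 1066 and 1089 in shFOXO707 cells with OHT, against 1166, 1176, 1242 and 1119 in sh-scr cells with OHT. Both hairpins lay below every scrambled array, by -0.25 with shFOXO33 (SE 0.05, adjusted p = 0.0021) and -0.12 with shFOXO707 (SE 0.05, adjusted p = 0.118). The difference of shFOXO707 minus shFOXO33 was 0.13 (95% interval -0.00 to 0.26, adjusted p = 0.161), so an HLA-F difference between the hairpins was not shown. Without OHT, it gave 1133 in the shFOXO33 array and 1413 in the shFOXO707 array, against 1289, 1399, 1346 and 1358 in sh-scr arrays. Its log2 difference there was -0.25 (adjusted p = 0.0225) for shFOXO33 and 0.07 (adjusted p = 0.627) for shFOXO707. That shFOXO33 call without OHT was lost without a trend in the variance prior. HLA-F 204806_x_at gave -0.38 (adjusted p = 0.0352) and the dim 221978_at gave -0.77 (adjusted p = 0.038) for shFOXO33 with OHT. The call of 204806_x_at was lost without a trend (adjusted p = 0.0941) and after quantile normalization (0.0695). With a pseudocount of 64, that of 221978_at was lost (adjusted p = 0.0575). Leaving out either shFOXO33 array with OHT, or sh-scr replicate 1, 2 or 3 with OHT, ended both of these HLA-F calls (adjusted p = 0.0568 to 0.19), while that of 221875_x_at was kept on leaving out any array.

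HLA-C 214459_x_at was the 1 member called between the hairpins with OHT, against 22% of all probe sets. It gave 3546 and 3307 in shFOXO707 cells and 4119 and 3900 in shFOXO33 cells, with 3702, 3962, 4189 and 4308 in sh-scr cells. The shFOXO707 arrays lay below all the others. The difference of shFOXO707 minus shFOXO33 was -0.23 (SE 0.07, adjusted p = 0.0231). The call was lost without shFOXO33 replicate 1 (adjusted p = 0.161) or shFOXO707 replicate 2 (adjusted p = 0.174). The other HLA-C probe sets gave -0.13, -0.16 and 0.11 for that difference, with adjusted p of 0.175, 0.114 and 0.478. Against sh-scr, shFOXO707 gave -0.16 on 216526_x_at (adjusted p = 0.0432), -0.19 on 208812_x_at (adjusted p = 0.0373) and -0.24 on 214459_x_at (adjusted p = 0.00842), while shFOXO33 gave -0.04, -0.02 and -0.01. Without shFOXO707 replicate 2 with OHT, 0 HLA-C probe sets were called against sh-scr (adjusted p = 0.286, 0.448 and 0.119). The HLA-C call of 216526_x_at was also lost without sh-scr replicate 1, 3 or 4 with OHT, either shFOXO33 array with OHT or shFOXO707 replicate 1 with OHT (0.0555 to 0.0939). That of 208812_x_at was also lost without sh-scr replicate 3 (0.0851) or 4 (0.0803) with OHT. With no trend in the variance prior, all 3 HLA-C calls were lost (adjusted p = 0.159, 0.137 and 0.0583). A limma fit of the 12 numbered arrays, with the replicate numbers as a block, also lost those of 216526_x_at (adjusted p = 0.132) and 208812_x_at (adjusted p = 0.08). Groups did not overlap between the hairpins for 15 of the 25 members, against 56.3% of all probe sets.

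Without OHT, with 1 array per hairpin, shFOXO33 had 4 called members, 2 higher and 2 lower, against 14.3% of all probe sets (6.75% higher, 7.59% lower). The shFOXO707 array also had 4, 1 higher and 3 lower, against 12.7% (6.45% higher, 6.21% lower). The hairpin array lay outside the sh-scr range for 13 members with shFOXO33, against 58.5% of all probe sets, and for 12 with shFOXO707, against 56.7%. HLA-E 200905_x_at was lower in both, at 1233 for shFOXO33 and 1250 for shFOXO707 against 1439, 1454, 1506 and 1558 for sh-scr. The log2 differences were -0.27 (adjusted p = 0.0251) and -0.25 (adjusted p = 0.0411), and both calls were lost without a trend in the variance prior. The shFOXO707 call of HLA-E was also lost on leaving out sh-scr replicate 3 or 4 without OHT, sh-scr replicate 1 or 3 with OHT, or either shFOXO33 array with OHT (adjusted p = 0.052 to 0.0723). The other HLA-E probe sets gave differences of -0.05 to 0.15 and were not called. The other lower calls with shFOXO707 were HLA-B 211911_x_at (-0.24) and 208729_x_at (-0.25), both lost without a trend in the variance prior. That of 211911_x_at was also lost without sh-scr replicate 3 without OHT. That of 208729_x_at was also lost on leaving out sh-scr replicate 1, 2 or 4 without OHT. Leaving out sh-scr replicate 2 or 3 with OHT, or either shFOXO33 array with OHT, ended it too. The signals of these HLA-B probe sets were 2203 and 1579 for shFOXO707, against means of 2601 and 1886 for sh-scr. With the hairpins pooled they gave -0.22 and -0.23 without OHT, not called (adjusted p = 0.0884 and 0.119), and -0.22 and -0.25 with OHT. The second higher call with shFOXO33 was ERAP1 209788_s_at, at 171 against 107, 112, 87.7 and 93.5 for sh-scr, a difference of 0.69 (SE 0.18, adjusted p = 0.0195). The shFOXO707 array gave 81.3.

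OHT in sh-scr cells gave 0 higher and 10 lower calls among the 25 members, against 45.4% of all probe sets called, 16.2% higher and 29.2% lower. The lower calls were 9 of the 13 heavy chain probe sets and 1 of the 2 B2M probe sets. The median of the 25 was -0.12, against -0.14 over all probe sets, and 11 of the 25 had groups that did not overlap, against 49.5%. After median centring, 4 members were higher, of B2M, TAPBP and ERAP1, and 1 of the 13 heavy chain probe sets, of HLA-E, was lower. Of all 22215 probe sets, 5291 were then higher and 4000 lower, with a median of 0.09. The heavy chain median was then 0.02, against -0.21 before. Quantile normalization gave 9 heavy chain probe sets lower and 2 members higher, against 5299 of all 22215 probe sets lower and 4258 higher. Leaving out sh-scr replicate 3 without OHT, replicate 1 with OHT or replicate 2 with OHT left 5 lower calls each time.

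HLA-E presents leader peptides of other class I chains to natural killer cell receptors. Its probe set 200905_x_at was the 1 member called lower with OHT under the deposited scaling, median centring and quantile normalization alike. It gave 1105, 1043, 1104 and 1204 in sh-scr cells with OHT, against 1439, 1454, 1506 and 1558 without it. All 4 arrays with OHT lay below all 4 without it. The mean was 1114 ± 66.8 with OHT and 1489 ± 54.1 without it (SD, n = 4 each). The log2 difference was -0.41 (SE 0.06, adjusted p = 5.53e-05), -0.19 after median centring (adjusted p = 0.0317) and -0.44 after quantile normalization (adjusted p = 1.61e-05). HLA-E 200904_at, whose suffix marks no shared sequence, gave 196, 171, 145 and 161 with OHT, against 236, 255, 234 and 256 without it. Its log2 difference was -0.51 (SE 0.14, adjusted p = 0.00651), -0.28 after median centring (adjusted p = 0.114). HLA-E 217456_x_at gave -0.29 (SE 0.09, adjusted p = 0.0156), and -0.06 (adjusted p = 0.627) after median centring. Its call was lost without sh-scr replicate 2 with OHT (adjusted p = 0.0547).

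The calls of the other heavy chain genes were lost after median centring. HLA-B gave -0.09, -0.22 and -0.21 on its 3 probe sets, the last 2 called, and 0.13, 0.01 and 0.01 with 0 called after median centring. HLA-C 216526_x_at gave 5506, 5351, 5474 and 5620 in sh-scr cells with OHT, against 5522, 5813, 6257 and 6365 without it, and these groups overlapped. Its log2 difference was -0.12 (adjusted p = 0.0895), and those of the other HLA-C probe sets were -0.19, -0.22 and -0.21, all called (adjusted p = 0.0238, 0.0176 and 0.0364). After median centring the 4 values were 0.01 to 0.10. The call of HLA-C 211799_x_at was lost on leaving out any of 6 of the 8 sh-scr arrays (adjusted p = 0.0549 to 0.105), that of 208812_x_at on leaving out any of 4 (0.0508 to 0.0759) and that of 214459_x_at on leaving out either of 2 (0.0515 and 0.0644). These HLA-C libraries were replicates 1 and 3 without OHT and all 4 with OHT for 211799_x_at, replicates 3 and 4 without OHT and 1 and 2 with it for 208812_x_at, and replicate 3 without OHT and 1 with it for 214459_x_at. HLA-F 221875_x_at gave -0.20 (SE 0.07, adjusted p = 0.0377) and, after median centring, 0.03 (adjusted p = 0.773). The HLA-F call was lost without sh-scr replicate 2, 3 or 4 without OHT or replicate 1, 2 or 4 with it (adjusted p = 0.0706 to 0.103).

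The light chain gene B2M gave small differences. Probe set 201891_s_at gave 9843, 9650, 9754 and 9333 in sh-scr cells with OHT, against 9381, 10199, 10100 and 10750 without it. The groups overlapped, with a difference of -0.07 (adjusted p = 0.321), or 0.16 (adjusted p = 0.0293) after median centring and 0.01 (adjusted p = 0.898) after quantile normalization. Its 216231_s_at gave -0.12 (SE 0.04, adjusted p = 0.0331), and 0.10 (adjusted p = 0.117) after median centring. The B2M call was lost without sh-scr replicate 3 or 4 without OHT or replicate 1, 2 or 4 with it (adjusted p = 0.0643 to 0.106). For knockdown with OHT the B2M differences were 0.04 and 0.03, with 95% intervals of -0.07 to 0.15 and -0.06 to 0.13.

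TAP2 and ERAP1 gave 0 calls on 8 probe sets with OHT in sh-scr cells, in hairpin cells, or for pooled knockdown. TAP2, a subunit of the peptide transporter, gave 416, 362, 371 and 383 on 204769_s_at in sh-scr cells with OHT, against 380, 416, 386 and 343 without it. The groups overlapped, with a difference of 0.01 (SE 0.11, adjusted p = 0.97). ERAP1 210385_s_at gave 212, 230, 175 and 250 with OHT, against 205, 285, 207 and 145 without it, a difference of 0.06 (SE 0.18, adjusted p = 0.823). After median centring, ERAP1 209788_s_at (0.50, adjusted p = 0.0357) and the dim 214034_at (0.48, adjusted p = 0.0332) were called higher. With shFOXO33 and OHT the ERAP1 probe sets went both ways and none was called. Their means were 89% of sh-scr on 210385_s_at, 98.6% on 214034_at, 139% on 214012_at, 148% on 209701_at and 121% on 209788_s_at. With a filter on low values, 214012_at (0.45, adjusted p = 0.0416) and 209701_at (0.53, adjusted p = 0.0272) were called higher there.

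**Figure D3:**
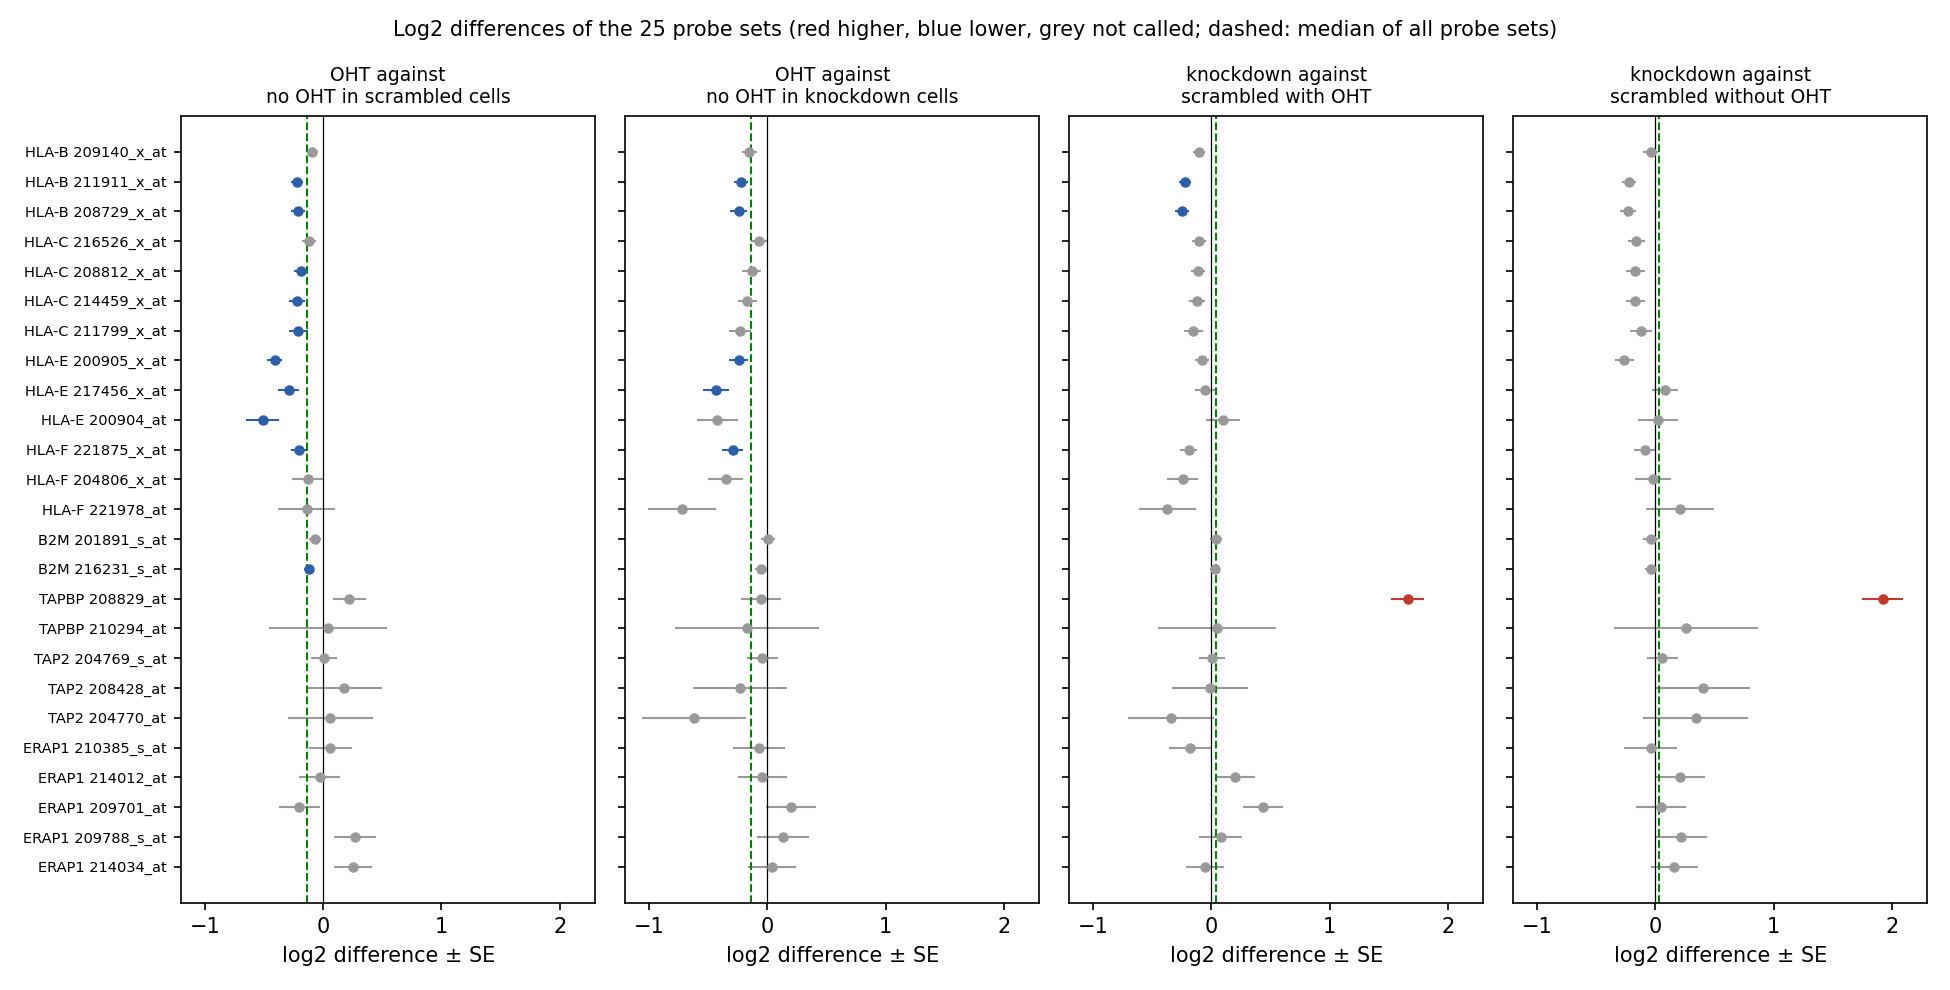
Log2 difference with its standard error (horizontal axes) for each of the 25 probe sets (rows) in 4 comparisons, OHT against no OHT in sh-scr and in hairpin cells and knockdown against scrambled with and without OHT. Red points were called higher, blue lower and grey not called, the dashed line is the median of all probe sets, and TAPBP 208829_at at 1.66 and 1.92 stands far right of the rest in both knockdown panels.

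In hairpin cells, OHT gave 0 higher and 5 lower calls among the 25 members, against 33.8% of all probe sets (12.4% higher, 21.4% lower), and 8 of the 25 had groups that did not overlap, against 42.7%. The lower ones were HLA-B 211911_x_at (-0.22, adjusted p = 0.0165) and 208729_x_at (-0.24, adjusted p = 0.0185), HLA-E 200905_x_at (-0.24, adjusted p = 0.0249) and 217456_x_at (-0.43, adjusted p = 0.00699), and HLA-F 221875_x_at (-0.29, adjusted p = 0.0177). After median centring 0 were lower and 2, both of B2M, were higher, against 2694 of all 22215 probe sets lower and 4103 higher. The interaction was called for 0 of the 25 members, against 0.122% of all probe sets, with 1690 of all probe sets at an unadjusted p under 0.05. For HLA-E 200905_x_at the interaction was 0.18 (95% interval -0.03 to 0.39, adjusted p = 0.728). Without the shFOXO33 array that had no OHT, or without the shFOXO707 array that had none, 2 members were lower with OHT in hairpin cells, and HLA-E 200905_x_at was not called (adjusted p = 0.0736 and 0.104).

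TAP1, whose product pairs with that of TAP2, is no member but is the partner against which TAP2 is read. It gave 1006, 958, 900 and 917 in sh-scr cells with OHT, against 489, 503, 505 and 475 without it. All arrays with OHT lay above all without it, a difference of 0.92 (SE 0.08, adjusted p = 1.58e-07), or 1.14 after median centring. Among measured genes on chromosome 6, PSMB8, TAP1 and PSMB9 follow TAP2 in that order. PSMB9, a catalytic subunit of the immunoproteasome, gave 880, 885, 869 and 807 with OHT, against 221, 255, 297 and 287 without it (1.65, SE 0.15, adjusted p = 3.5e-07). PSMB8, another such subunit, gave 0.12 (adjusted p = 0.469). This became 0.35 (adjusted p = 0.0346) after median centring and 0.19 (adjusted p = 0.277) after quantile normalization. TAP1 was lower in hairpin cells, at 702 and 748 for shFOXO33 and 796 and 881 for shFOXO707 with OHT against 1006, 958, 900 and 917 for sh-scr (-0.27, SE 0.08, adjusted p = 0.0368). With single hairpins, it was called for shFOXO33 (-0.37, adjusted p = 0.000552) and not for shFOXO707 (-0.17, adjusted p = 0.0839), and the difference of shFOXO707 minus shFOXO33 was 0.20 (adjusted p = 0.0698). Without OHT, TAP1 averaged 367 in hairpin cells and 493 in sh-scr cells (-0.41, adjusted p = 0.0277), and it was called for each hairpin.

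The other genes of the pathway were counted by 1 probe set per gene, the brightest. They are read against the 16.2% of all probe sets that were higher and 29.2% that were lower with OHT in sh-scr cells. Counts after median centring are read against 5291 of all 22215 probe sets higher and 4000 lower under that setting. Among 13 other peptide loading and glycoprotein folding genes, 2 rose and 4 fell with OHT in sh-scr cells (median -0.08), which became 5 and 1 after median centring. The translocon gene SEC61A1 rose (0.68, adjusted p = 0.000143), and the chaperone gene HSPA5 (-0.67, adjusted p = 1.59e-05) fell, each also after median centring. PRKCSH, a glucosidase II subunit, fell by 0.39 (adjusted p = 0.00021), with -0.16 (adjusted p = 0.0741) after median centring. Of 10 measured immunoproteasome, PA28 and peptidase genes, 2 rose and 0 fell (median 0.12), or 4 and 0 after median centring. Those under the deposited scaling were PSMB9 and the cytosolic peptidase gene BLMH (1.90, SE 0.11, adjusted p = 5.27e-09). Of 8 measured class I or class I-like genes, CD1D, which presents lipids, rose (1.40, adjusted p = 8.6e-06) and MR1, which presents vitamin metabolites and was dim here, fell (-1.02, adjusted p = 0.000193).

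Transcription factors that act on class I promoters went both ways, with 5 of 15 higher and 8 lower (median -0.54), or 5 and 7 after median centring. IRF1, an interferon-induced factor that binds the ISRE, averaged 795 with OHT and 241 without it in sh-scr cells (1.65, SE 0.09, adjusted p = 2.15e-09). NFYB rose by 1.41 (adjusted p = 2.81e-07) and NFKB1 by 0.99 (adjusted p = 4.83e-07). IRF3, a sensor-activated interferon regulator, fell (-0.86, adjusted p = 1.41e-06). These 4 kept their direction and call after median centring. Among 12 interferon receptor and signalling genes, 3 rose and 3 fell (median -0.03), or 4 and 1 after median centring. USP18 (3.03, adjusted p = 5.46e-08), SOCS3 (2.14, adjusted p = 9.8e-08) and JAK2 (1.74, adjusted p = 2.55e-07) rose. IFNGR1, a chain of the interferon gamma receptor, averaged 142 with OHT and 968 without it (-2.64, SE 0.16, adjusted p = 5.63e-09).

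For pooled knockdown with OHT, these lists are read against the 6.1% of all probe sets that were higher and 3.95% that were lower. The loading and folding genes had 2 higher, GANAB (0.22, adjusted p = 0.00614) and PRKCSH (0.24, adjusted p = 0.0313), and 1 lower, TAP1. The proteasome and peptidase genes had 1 lower, IDE (-0.53, adjusted p = 0.0308), the class I-like genes 1 lower, CD1D (-0.88, adjusted p = 0.00454), and the interferon signalling genes 1 higher, IFNGR1 (0.57, adjusted p = 0.0365). Of the transcription factors, RFXANK (0.46, adjusted p = 0.032) and NFYC (0.37, adjusted p = 0.0248) were higher and NFYA (-0.60, adjusted p = 0.0147) lower. With single hairpins and OHT, each list had more calls with at least 1 hairpin. These counts are read against 13.7% higher and 11.6% lower of all probe sets with shFOXO33, and 11.2% and 9.28% with shFOXO707. Of the 13 loading and folding genes, 2 were higher and 4 lower with shFOXO33, and 3 and 1 with shFOXO707. The 8 class I-like genes had 0 higher and 2 lower, then 2 and 1, for the same hairpins. For the 15 transcription factors these counts were 2 and 1, then 2 and 3. Of the 10 proteasome and peptidase genes, 3 were lower with shFOXO33 and 6 with shFOXO707, against 11.6% and 9.28% of all probe sets, and 0 were higher with either. The leucine aminopeptidase gene LAP3 gave -2.70 (adjusted p = 1.5e-10) with shFOXO33 and -0.32 (adjusted p = 0.0374) with shFOXO707. IDE gave -0.71 (adjusted p = 2.41e-07) with shFOXO33 and -0.35 (adjusted p = 0.000312) with shFOXO707. PSME1, a PA28 subunit, gave -0.59 (adjusted p = 1.89e-06) with shFOXO707. Of the 12 interferon signalling genes, 1 was higher and 6 lower with shFOXO33, and 3 were higher and 1 lower with shFOXO707. The phosphatase gene PTPN11 gave -0.66 (adjusted p = 6.51e-07) with shFOXO33 and 0.56 (adjusted p = 5.98e-06) with shFOXO707. IFNGR2, the other interferon gamma receptor chain, gave -0.51 (adjusted p = 2.64e-05) with shFOXO33, and the kinase gene JAK1 gave -0.69 (adjusted p = 5.21e-07) with shFOXO707. The OHT and knockdown comparisons share the sh-scr arrays with OHT, so their values are set side by side and not correlated.

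**Figure D4:**
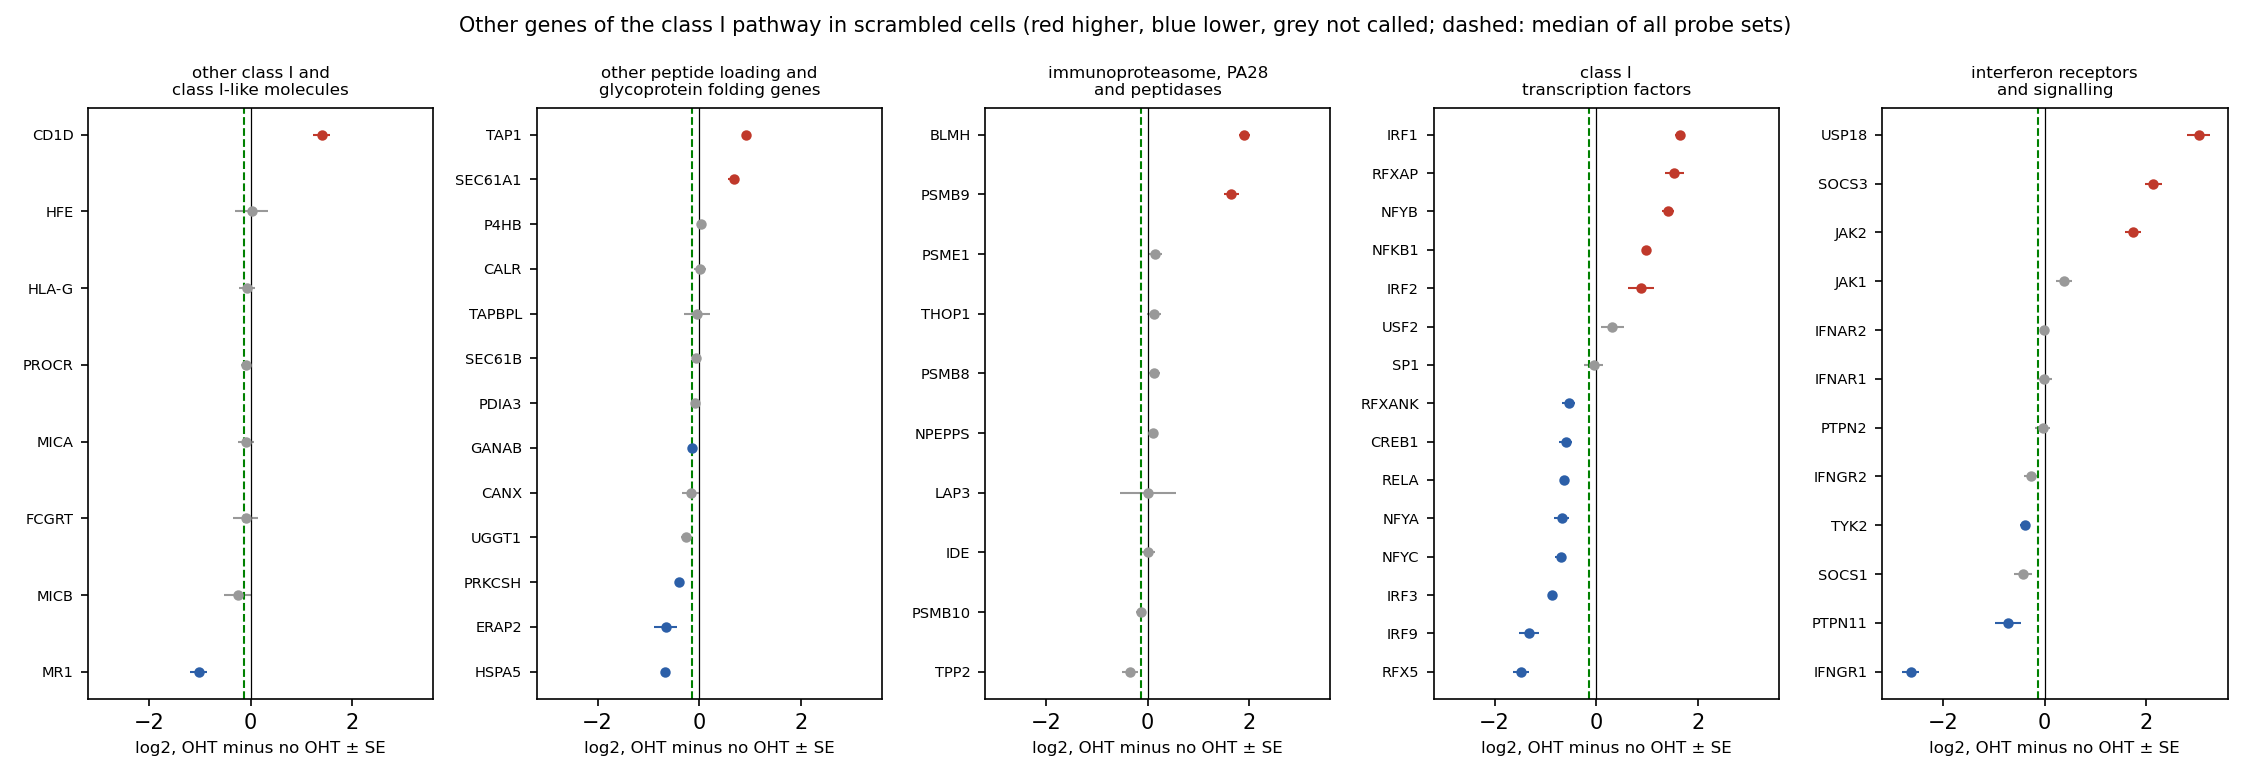
Log2 difference, OHT minus no OHT in sh-scr cells, with its standard error (horizontal axes) for the other measured genes of the class I pathway (rows) in 5 lists. Red genes were called higher, blue lower and grey not called, the dashed line is the median of all probe sets, and TAP1 (0.92), PSMB9 (1.65), IRF1 (1.65) and USP18 (3.03) lie right of it while IRF3 (-0.86) and IFNGR1 (-2.64) lie left.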

How the data were processed

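Expression was measured on 14 Affymetrix arrays of U2OS cells in 6 groups taken from the sample titles. Per the submitters' processing notes, MAS5 produced the linear intensity that the authors deposited for each probe set and array. With 2% of probe sets trimmed at either end, each array averaged 500, and the arrays were used on this common scale without scanner or detection values. Precision depends on how many arrays a group has.

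Of 22277 probe sets, 62 were array controls, and 22215 were tested. The platform annotation gave 19064 of these 1 gene, 1043 several and 2108 none, and symbols were updated for 19052 through the RefSeq gene table of GRCh38.p14. The fit used log2(signal + 16), which understates fold changes of dim genes. R version 4.3.3 ran limma version 3.58.1, with lmFit and a trended eBayes and without a filter, over 4 groups with hairpins pooled, and over 6 groups for single hairpins. Groups of 1 array take their spread from the others. Pooling treats arrays of 1 hairpin as independent, which can make p-values too small for a claim about knockdown in general. It also puts differences between the hairpins into the spread. For knockdown without OHT, pooling called 3.16% of all probe sets, against 14.4% in the fit of 6 groups. A call is a Benjamini-Hochberg adjusted p under 0.05 over all 22215, two-sided.

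A member's representative was its brightest probe set, and 20 of the 25 lay above the 40th percentile of mean log2 values (6.57). Members and gene lists were chosen with earlier results of these data known. Up to 4 called genes per list and comparison, those with the smallest adjusted p, were named, with the 3 most alike genes and 3 neighbours on each side. Promoters came from RefSeq. On simulated data with 200 of 22215 probe sets changed by 1 on the log2 scale between OHT and no OHT in scrambled cells, 143 (71.5%) were recovered with 7 false calls. Alternatives were another pseudocount, a filter, median centring, quantile normalization, 1 probe set per gene, no _x_at probe sets, no trend, 6 groups, single hairpins, a replicate block, and leaving out each array.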

Additional observations from a re-analysis of the deposited data

Results flagged for a closer look

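HLA-C 214459_x_at differed between the hairpins with OHT by a test of that difference, -0.23 on the log2 scale for shFOXO707 minus shFOXO33, as given above with the arrays that end the call. The ACTB 3'/5' ratio was 2.04 and 1.95 in these shFOXO707 arrays and 1.63 and 1.60 in the shFOXO33 arrays, and its part was not tested.

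In groups of 4 arrays, 3 of 50 had 1 array far from the other 3, where chance gives about 1 in 20. ERAP1 214012_at in sh-scr cells with OHT gave 217 in replicate 3 and 167 to 168 in the others, a gap of 0.961 of the group's range. The same probe set without OHT gave 128 in replicate 3 and 200 to 215 in the others, a gap of 0.856. TAP2 208428_at, a dim probe set, gave 7.07 in replicate 3 with OHT and 25.1 to 30 in the others, a gap of 0.835. None of these probe sets was called for OHT in sh-scr cells. For shFOXO33 against sh-scr with OHT, ERAP1 214012_at was called higher on leaving out either flagged array. The values were 0.53 (adjusted p = 0.0432) without replicate 3 with OHT and 0.45 (adjusted p = 0.0162) without replicate 3 without OHT.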

How the results depend on the processing

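TAPBP 208829_at was called in all alternatives of both knockdown comparisons. Of 1888 values of the brightest probe sets under alternatives, 1825 kept their side of the threshold. Of these, 63 had the other sign and no call under either setting. A further 34 lost their call, 27 gained one, and 2 changed both sign and call status. Those 2 were for OHT in sh-scr cells after median centring. HLA-F at 0.03 lost its lower call (adjusted p = 0.773), and B2M at 0.16, not called before, gained a higher one (adjusted p = 0.0293). The cause was not tested for any change below unless the setting itself removes probe sets or arrays. Median centring gave 4 members higher and 1 lower with OHT in sh-scr cells, and 2 higher and 0 lower in hairpin cells. Quantile normalization gave 2 higher in sh-scr cells and 9 lower in hairpin cells, where 3774 of all 22215 probe sets were lower. With 1 probe set per gene, 2 of 8 were lower with OHT in sh-scr cells, 2 in hairpin cells and 0 for knockdown with OHT, and shFOXO33 with OHT had 2 calls, shFOXO707 3 with OHT and 2 without, and the hairpin difference 0. Without _x_at probe sets, 2 were lower with OHT in sh-scr cells, 0 in hairpin cells and 0 for knockdown with OHT, and the single hairpins had 2 and 1 calls with OHT, 2 and 1 without it, and 0 for their difference. With no trend, these counts were 5, 2 and 0, then 3 and 3 with OHT, 2 and 1 without it, and 0. In 6 groups, 11 were lower with OHT in hairpin cells and 3 for knockdown without OHT. With shFOXO33 alone, knockdown had 5 lower with OHT, and 2 higher and 2 lower without it. With shFOXO707 alone it had 4 lower with OHT and 1 without.

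Leaving out each array gave 5 to 10 lower (0 higher) with OHT in sh-scr cells, 2 to 7 lower and 0 to 1 higher in hairpin cells, and 0 to 2 lower (1 higher) for knockdown with OHT. It gave 1 higher and 0 lower for knockdown without OHT, and 0 for the interaction. The counts were 3 to 8 for shFOXO33 and 2 to 7 for shFOXO707 with OHT, 4 to 5 and 2 to 4 without it, and 0 to 4 for the hairpin difference. Over all probe sets the share called ran from 41.8% to 70.5% for OHT in sh-scr cells, 27.7% to 57.9% in hairpin cells, 4.77% to 25.3% for knockdown with OHT, 1.98% to 14.4% without it and 0.027% to 3.24% for the interaction. Replicate numbers in the titles gave no sign of pairing, with correlations of same-numbered deviations from -0.06 to 0.07. A fit with the replicate block, over the 12 numbered arrays, gave 9 members lower with OHT in sh-scr cells and, for knockdown with OHT, 1 higher and 0 lower, with TAPBP at 1.71 (adjusted p = 0.000509) in this fit. The replicate block fit differs from the main one both by the block and by lacking the shFOXO33 and shFOXO707 arrays without OHT. A fit of the same 12 arrays without the block was added after seeing the data, and its values are not listed singly here.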
